A study of Homo sapiens with 6 samples.

Results

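The mitochondrial ribosomal protein genes were taken as every protein-coding gene of the expression table whose symbol begins with MRPL or MRPS followed by a digit, which gave 78 of 58735 genes. The RNA came from PC9-BrM3 cells, a lung adenocarcinoma line selected in mice for repeated growth in the brain. AKR1B10, an aldo-keto reductase, had been silenced with the first of the study's shRNAs in BrM3-shAKR1B10 (3 libraries), and BrM3-shNC (3 libraries) carried a negative control shRNA. Both groups were lentivirally transduced (LV2 vector) and kept in routine culture, and the control's genotype is labelled WT although it also holds a vector. Everything therefore rests on a single cell line and a single silencing sequence. No source says that the 3 libraries of a group were separate cultures, so the p-values measure the spread between these libraries, which may be technical.

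Mitochondria keep their own ribosome, the mitoribosome, which makes the core subunits of the respiratory chain that mitochondrial DNA encodes. Its rRNAs come from mitochondrial DNA, while all of its proteins are encoded in the nucleus, made in the cytosol and imported. The small subunit reads the mRNA and the large subunit joins amino acids, and both hold proteins with bacterial counterparts beside proteins found only in mitochondria. In promoters of such nuclear genes the factors NRF1, GABP (of the ETS family) and YY1 are known to bind.

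Of the 78 genes, 26 encode small subunit proteins and 51 encode large subunit proteins, MRPS18A and MRPS30 among the latter in spite of their symbols. MRPS36 has the symbol of the family, but its protein belongs to the 2-oxoglutarate dehydrogenase complex. Of the 82 proteins of the mitoribosome, 5 have other symbols and are given apart.

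The promoters were read first, since the regulators of these genes are described further on. RefSeq's promoter sequences (GRCh38.p14, 250 bases before to 50 after the start) were found for 69 members and not for MRPL2, MRPL10, MRPL13, MRPL15, MRPL21, MRPL23, MRPL35, MRPS28 and MRPS36. On either strand, the ETS letters CCGGAAG were in the promoters of 29 of the 69 members (42.0%), against 20.7% of the 8901 promoters of tested genes and 10.7% of all 27305 promoters. The YY1 letters AAGATGGC were in 20 members (29%), against 5.8% of promoters of tested genes and 3.0% of all. In 15 of those 20 the match reached past the start. The NRF1 letters GCGCATGC were in 6 members (8.7%, against 5.9% and 3.3%) and the E-box CACGTG in 6 (8.7%, against 10.2% and 7.4%). The ETS and YY1 words can share the letters AAG, and 8 members held both, with an overlapping match in 0 of them. At least 1 of the ETS, YY1 and NRF1 words stood in 60.9% of members and in 29.1% of promoters of tested genes. A match is a description of the letters only.

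Upstream stretches of 5 members show where the ETS letters lay in genes that differ in their response: MRPS10, MRPL58 and MRPL19 were lower in BrM3-shAKR1B10, MRPL20 was higher, and MRPL3 did not pass the test. Each holds the 150 bases before the RefSeq start, written along the gene's strand, with matches to the ETS, YY1 or NRF1 words in capitals.
MRPS10, chr6:42217862-42218011, minus strand: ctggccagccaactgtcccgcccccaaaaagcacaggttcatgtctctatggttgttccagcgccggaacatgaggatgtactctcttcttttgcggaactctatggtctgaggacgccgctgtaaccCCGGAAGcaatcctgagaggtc
MRPL58, chr17:75012520-75012669, plus strand: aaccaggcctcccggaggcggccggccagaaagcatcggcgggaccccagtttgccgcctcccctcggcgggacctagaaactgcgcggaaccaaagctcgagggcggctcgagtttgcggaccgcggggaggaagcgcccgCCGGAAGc
MRPL19, chr2:75646633-75646782, plus strand: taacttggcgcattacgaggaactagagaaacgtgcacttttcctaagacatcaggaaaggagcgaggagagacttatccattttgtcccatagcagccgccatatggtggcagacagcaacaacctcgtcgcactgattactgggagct
MRPL20, chr1:1407294-1407443, minus strand: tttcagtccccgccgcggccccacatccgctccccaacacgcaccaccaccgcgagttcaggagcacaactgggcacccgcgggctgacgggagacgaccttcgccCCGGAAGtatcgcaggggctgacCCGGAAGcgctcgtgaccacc
MRPL3, chr3:131502972-131503121, minus strand: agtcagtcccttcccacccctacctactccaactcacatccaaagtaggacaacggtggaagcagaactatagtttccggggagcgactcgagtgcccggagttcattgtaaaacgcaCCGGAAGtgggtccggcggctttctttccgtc
Between the ETS letters and the start lay 15 bases in MRPS10, 1 base in MRPL58 and 25 bases in MRPL3. MRPL20 held them at 2 places, and MRPL19 held none of the words here. MRPS10 and MRPL20 also have a YY1 match in the searched promoter, which does not lie whole within the bases printed here.

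Depth ran from 16964504 to 18709028 reads on genes per library, at which 3 reads on a gene of 1000 bases come to between 0.163 and 0.177 FPKM (fragments per kilobase of gene length, scaled to the library's reads). Silencing was seen in each library, with AKR1B10 at 108.3, 107.2 and 110.2 FPKM in BrM3-shAKR1B10 against 798.7, 775.0 and 772.0 FPKM in BrM3-shNC (log2FoldChange -2.85, padj 1.6e-07). The epithelial markers EPCAM, CDH1 and KRT7, KRT8, KRT18 and KRT19 had means from 46.4 to 938.6 FPKM, NKX2-1, which marks the lung lineage, was below 1 FPKM, and markers of leukocytes, endothelium, fibroblasts and neural cells had means of at most 1.98 FPKM. Of these low markers, the endothelial gene CDH5 was higher (1.85 against 1.14 FPKM, log2FoldChange 0.65, padj 0.0039) and the fibroblast gene COL1A1 lower (1.22 against 1.98 FPKM, -0.67, padj 0.00319). The endothelial gene PECAM1, under the minimum for a test, was at 0.272 against 0.438 FPKM, with the silenced libraries below the controls. Of the 6 epithelial markers, EPCAM (-0.24, padj 0.00975) and KRT7 (-0.19, padj 0.0207) were lower and CDH1 (0.16, padj 0.00975) was higher at padj under 0.05. The part of these markers in the members' values was not tested. The BrM3-shNC replicate 1 library differed more from the other controls (chi-square per gene 4.88 and 5.42) than any other pair of one group (2.45 to 2.70). Without it, 19 members were lower and 6 higher at an adjusted p under 0.05.

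The mitochondrial ribosomal protein genes were mostly close to their control level after AKR1B10 silencing, with a short list of lower genes led by MRPL35, MRPL9, MRPS10 and MRPL23. Of the 76 members tested, these 4 passed the study's thresholds (padj under 0.05 and a log2FoldChange beyond 0.5 in size) as lower and 0 as higher, where 7.45% of all 13150 genes tested passed as lower and 5.83% as higher. At padj under 0.05 alone, 18 members were lower (23.7%) and 9 higher (11.8%), where 23.1% of all genes tested were lower and 19.4% higher. All 3 BrM3-shAKR1B10 libraries lay below all 3 BrM3-shNC libraries for 25 members and above them for 12, and 29.2% and 25.5% of all genes did so. The lower shares of members were thus near those of all genes, and the higher shares were under them. Among protein-coding genes, 8.01% passed both thresholds as lower and 4.85% as higher, and 26.6% and 20.3% did so at padj alone. The median log2FoldChange of members was -0.06 (quartiles -0.17 and 0.09), against -0.01 for all genes tested and -0.03 for protein-coding genes. The lists were compared by these counts only, with no test of a set. With RNA from whole cultures, fewer cells of a type and less RNA per cell cannot be told apart.

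Changes past the test were small. Of the 18 lower members, 15 were lower by at least 0.25 on the log2 scale, and of the 9 higher members 1 (MRPL46) was higher by as much, with MRPS33 just under that size before rounding. Of the 49 tested members that did not pass, 46 had a 95% interval of the log2FoldChange that lay inside -0.5 to 0.5, so that for these a change of that size was outside the interval.

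MRPL35 (ENSG00000132313, chromosome 2 from 86199355 to 86213794, plus strand, GRCh38), the counterpart of bacterial large subunit protein bL35, was at 5.48, 6.47 and 6.76 FPKM in BrM3-shAKR1B10 and at 11.47, 10.53 and 10.99 FPKM in BrM3-shNC. Each silenced library was well below each control. Its mean level was 56.7% of the control (log2FoldChange -0.81, 95% interval -1.01 to -0.62, SE 0.0826, padj 4.8e-04), the lowest among the members tested. No exon base of MRPL35 lies in another annotated gene.

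MRPL9 (ENSG00000143436, chromosome 1 from 151759643 to 151763564, minus strand), the counterpart of bL9, was at 17.5, 16.4 and 16.1 FPKM in BrM3-shAKR1B10 and at 24.5, 25.8 and 28.3 FPKM in BrM3-shNC. The groups stood apart, with the spread wider in the controls. The log2FoldChange was -0.65 (95% interval -0.80 to -0.50, SE 0.0616, padj 3.6e-04). MRPL9 starts head to head with OAZ3, an antizyme gene on the other strand. In all, 38.5% of the 1812 exon bases of MRPL9 are also exon of other genes. On the other strand 602 bases are shared, 333 of them with OAZ3, and 118 are shared on the same strand. Of these partners, only the level of OAZ3 is given here. OAZ3 was at 0.557 FPKM against 0.388 FPKM, under the minimum for a test. Whether counting used the strand is not given in the sources used here, and the part of the shared bases in the MRPL9 value was not tested.

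MRPS10 (ENSG00000048544, chromosome 6 from 42206801 to 42217865, minus strand), the counterpart of uS10 in the head of the small subunit, was at 24.5, 24.7 and 23.9 FPKM after silencing and at 37.3, 37.0 and 35.7 FPKM in the control. Its replicates were the tightest of these 4 genes. The log2FoldChange was -0.59 (95% interval -0.66 to -0.51, SE 0.0323, padj 4.1e-05), and no exon base was shared.

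MRPL23 (ENSG00000214026, chromosome 11 from 1947278 to 1984522, plus strand), the counterpart of uL23 at the mouth of the tunnel by which the new chain leaves, was at 7.02, 5.94 and 7.37 FPKM against 8.12, 10.7 and 12.1 FPKM. The groups did not overlap, but the highest silenced library and the lowest control were close. The log2FoldChange was -0.59 with a wide interval (-0.95 to -0.22, SE 0.154, padj 0.0221). This call was lost when BrM3-shAKR1B10 replicate 1 or 2, or BrM3-shNC replicate 2 or 3, was left out (largest padj 0.0674), and also with no filter on low genes. MRPL35, MRPL9 and MRPS10 passed in every fit that left out a library.

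**Figure D1:**
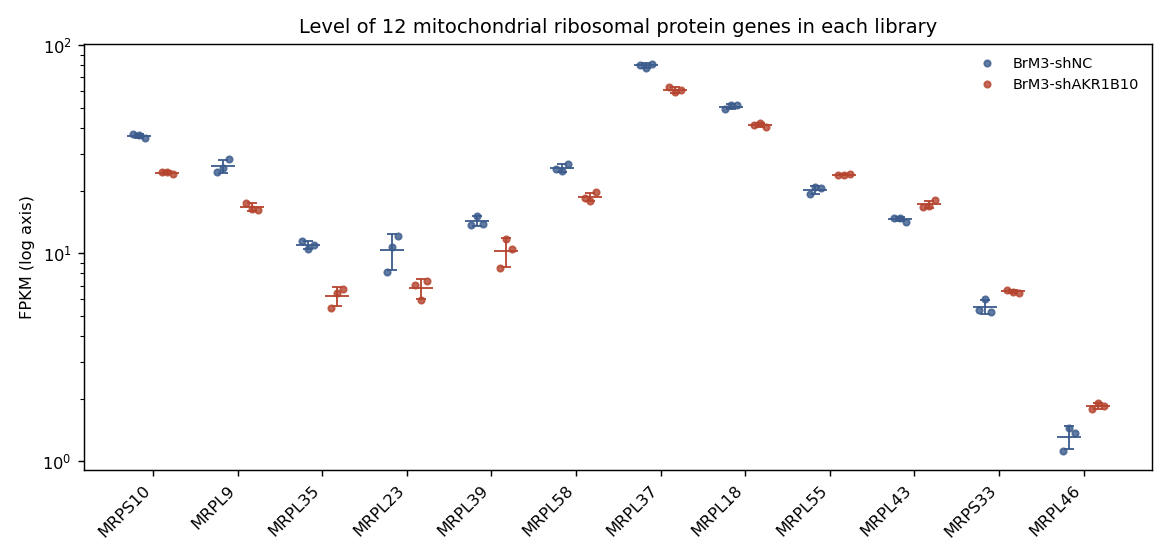
FPKM (log axis) of 12 mitochondrial ribosomal protein genes in each of the 6 libraries, with dots for libraries and bars for the group mean and SD (n = 3). MRPS10, MRPL9, MRPL35 and MRPL23 and the next 4 genes lie lower in BrM3-shAKR1B10, and MRPL55, MRPL43, MRPS33 and MRPL46 lie higher, with the dots of the 2 groups apart in each.

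Just short of the fold threshold came MRPL39 (log2FoldChange -0.48, padj 0.0153), a large subunit protein with a threonyl-tRNA synthetase fold. It was at 8.50, 11.73 and 10.49 FPKM against 13.7, 15.1 and 13.9 FPKM. MRPL58, the peptidyl-tRNA hydrolase also called ICT1 that frees stalled chains, followed at 18.4, 17.9 and 19.6 FPKM against 25.3, 24.9 and 26.9 FPKM (-0.46, padj 5.6e-04). Both sets of libraries were apart.

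MRPL37, specific to the mitochondrial large subunit and the second most expressed member, was at 63.1, 59.2 and 61.0 FPKM against 80.6, 77.7 and 81.3 FPKM (log2FoldChange -0.39, padj 3.3e-04). Lower at padj under 0.05 were also MRPL48 (-0.42), MRPL19 (-0.38), MRPS7 (-0.37), MRPL42 (-0.33), MRPS27 (-0.33), MRPS6 (-0.32), MRPL18 (-0.30), MRPS9 (-0.28), MRPS23 (-0.23), MRPL22 (-0.17) and MRPS2 (-0.17), values being log2FoldChange. Of all 18 lower members, 13 passed padj under 0.05 in each fit that left out 1 library. The 5 that did not were MRPL23, MRPS6, MRPS23, MRPL22 and MRPS2.

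Among the 9 higher members the change was smaller. MRPL55, the counterpart of bL31, was at 23.8, 23.9 and 24.0 FPKM against 19.2, 20.9 and 20.5 FPKM (log2FoldChange 0.24, padj 0.00382), with all silenced libraries above the controls. MRPL43 was at 16.66, 16.85 and 18.01 FPKM against 14.8, 14.8 and 14.2 FPKM (0.23, padj 0.00593). These were the 2 of 9 that passed in each fit without 1 library. The others were MRPS33 (0.25), MRPL10 (0.18), MRPL20 (0.18), MRPL49 (0.15), MRPL45 (0.14) and MRPL57 (0.12), and MRPL46, which had the highest value. MRPL46 was at 1.78, 1.90 and 1.84 FPKM against 1.13, 1.45 and 1.36 FPKM (0.46, 95% interval 0.16 to 0.76, padj 0.0252), on 133 to 221 reads per library. The number of higher members fell from 9 to 3 without BrM3-shAKR1B10 replicate 1, to 5 without BrM3-shAKR1B10 replicate 2 and to 4 without BrM3-shNC replicate 3.

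**Figure D2:**
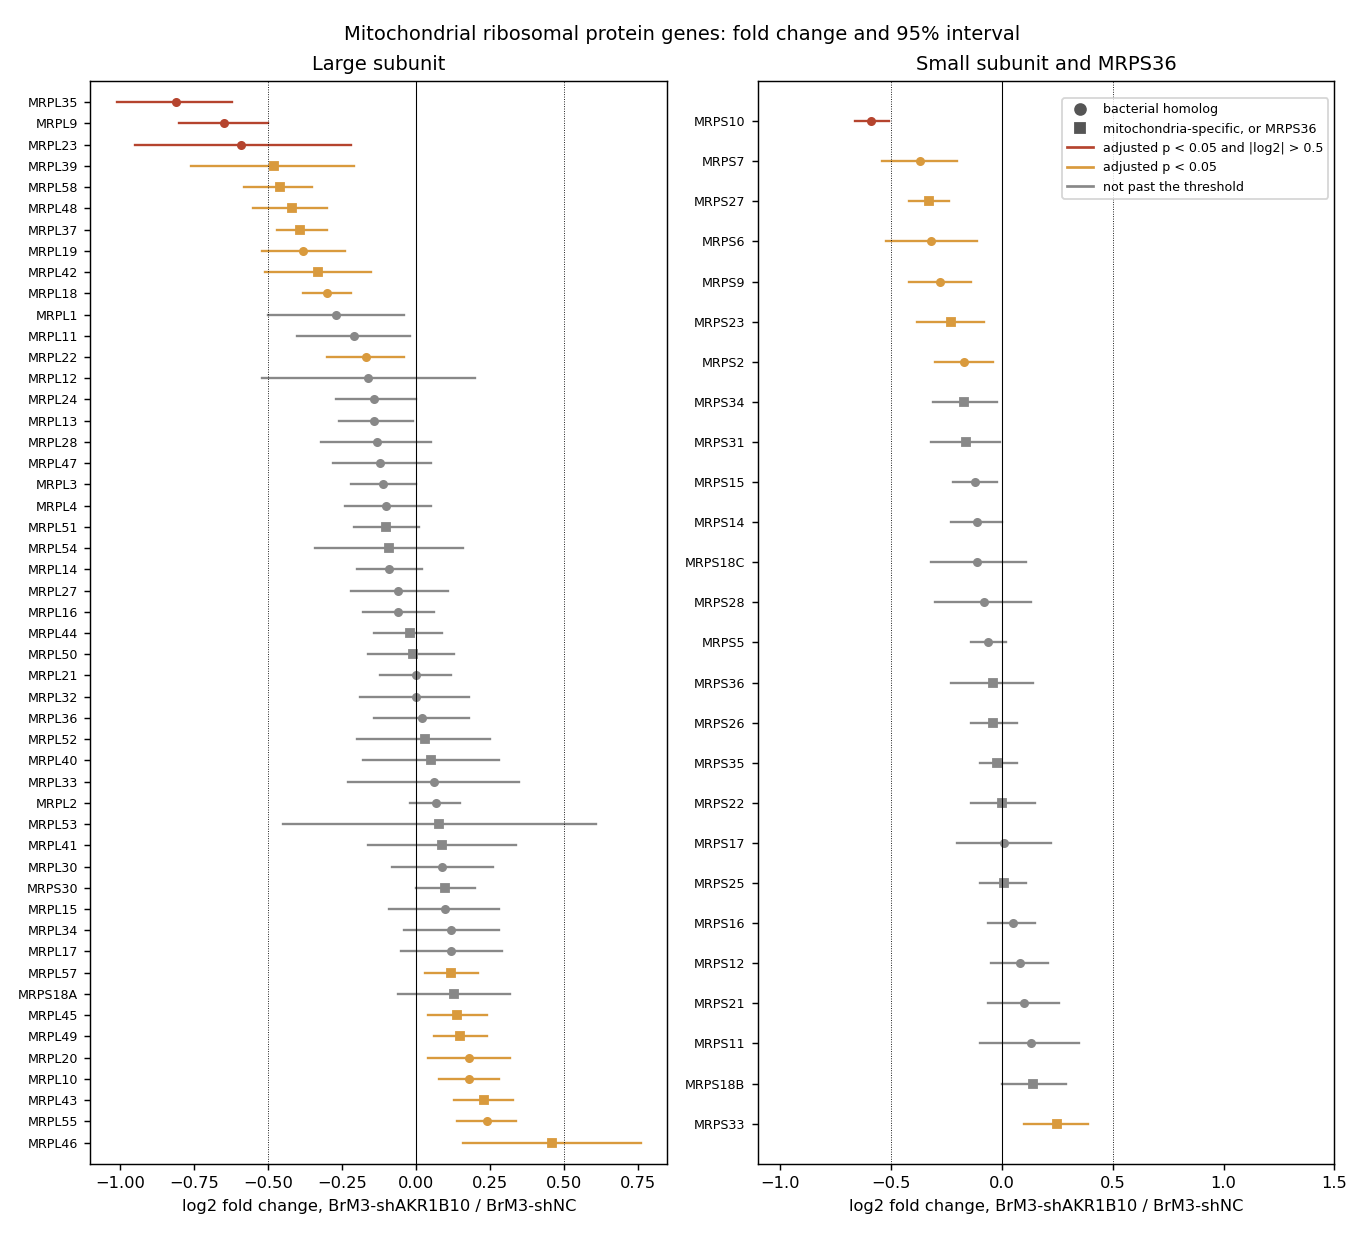
log2FoldChange (BrM3-shAKR1B10 over BrM3-shNC) with its 95% interval for the 76 tested members, the 50 large subunit genes on the left and the 25 small subunit genes with MRPS36 on the right, circles for bacterial homologs and squares for the rest, dotted lines at -0.5 and 0.5. The 4 red genes passed both thresholds, orange ones padj alone, and 61 of the 76 intervals lie inside the dotted lines.

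By subunit, 7 of 25 tested small subunit members were lower at padj under 0.05 and 1 higher (median log2FoldChange -0.08), and 11 of 50 large subunit members were lower and 8 higher (median -0.04). Among small subunit proteins with a bacterial homolog, 5 of 15 were lower and 0 higher (MRPS10, MRPS7, MRPS6, MRPS9 and MRPS2), with the silenced libraries below all controls for 8 of them, against 29.2% of all genes tested. Among large subunit proteins with a bacterial homolog 6 of 30 were lower and 3 higher, and among those specific to mitochondria, GADD45GIP1 included, 6 of 21 were lower and 5 higher. Among small subunit proteins specific to mitochondria, with DAP3, CHCHD1, AURKAIP1 and PTCD3 included, 2 of 14 were lower and 2 higher. The shares over all genes tested were 23.1% lower and 19.4% higher. All 4 genes past both thresholds encode bacterial homologs, a class that holds 15 of the 25 tested small subunit members and 30 of the 50 large subunit ones. No test of one group against another was made.

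The functional sites of the large subunit held genes of both directions. At the stalk, where translation factors dock, MRPL10 was higher (0.18, padj 0.0154), while MRPL11 (log2FoldChange -0.21, padj 0.0734) and MRPL12 (-0.16, padj 0.432) did not pass. MRPL12 is also known to bind the mitochondrial RNA polymerase. Around the exit tunnel MRPL23 and MRPL22 were lower and MRPL45, which tethers the ribosome to the inner membrane, was higher (0.14, padj 0.0328), and MRPL24, MRPL44 and MRPL47 did not pass. In the central protuberance MRPL58, MRPL48 and MRPL18 were lower and MRPL46 higher among 6 tested members. Over all genes tested, 23.1% were lower and 19.4% higher at padj under 0.05.

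The paralogs MRPS18A, MRPS18B and MRPS18C, which occupy different sites, did not pass, at log2FoldChange 0.13 (padj 0.225), 0.14 (padj 0.101) and -0.11 (padj 0.376). Closest to 0 were MRPL21 (20.7 to 21.8 FPKM against 20.1 to 22.4 FPKM), MRPL32 and MRPS22, each with a log2FoldChange that rounds to 0.00. MRPS36, which is not a mitoribosomal protein, was at -0.04 (padj 0.682). Of the 5 mitoribosomal proteins named otherwise, DAP3, a GTP-binding protein of the small subunit, was higher (25.3 against 22.1 FPKM, 0.19, padj 0.0057) and GADD45GIP1 of the large subunit was lower (32.0 against 35.7 FPKM, -0.16, padj 0.049). PTCD3 (-0.09), CHCHD1 (-0.02) and AURKAIP1 (0.06) did not pass.

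Levels of the members ran from 0.18 to 101.3 FPKM over the 6 libraries, with a median of 17.0 FPKM (quartiles 9.2 and 30.2). The median was 6.04 FPKM for all genes tested and 174 FPKM for cytosolic ribosomal proteins. For respiratory chain subunits encoded in the nucleus, ATP synthase genes included, it was 25.6 FPKM. MRPS34, specific to the mitochondrial small subunit, was highest at 98.3, 90.5 and 97.3 FPKM against 98.1, 112 and 111 FPKM, and the groups overlapped (log2FoldChange -0.17, padj 0.0705). After it and MRPL37 came MRPS35 (68.3 against 69.0 FPKM), MRPS26 (67.5 against 69.3 FPKM) and MRPL3 (65.7 against 70.9 FPKM), none of which passed. The means of MRPS35, MRPS26 and MRPL3 over all libraries differed by less than the SD of either group.

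Summed over the 78 genes, the level was 1718, 1671 and 1672 FPKM in BrM3-shAKR1B10 and 1760, 1825 and 1789 FPKM in BrM3-shNC. The silenced libraries lay below the controls, at 94.2% of their mean (1687 ± 27.1 against 1791 ± 32.5, SD, n = 3). Taken as a share of each library's reads on genes, without the scaling between libraries in the deposited values, the members held 0.398%, 0.389% and 0.387% against 0.396%, 0.412% and 0.400%. On that scale the groups overlapped, and the mean share was 97.2% of the control. The ratio of large to small subunit sums was 1.81 ± 0.00493 against 1.81 ± 0.0362 (SD, n = 3), so the subunits kept their proportion within the spread.

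**Figure D3:**
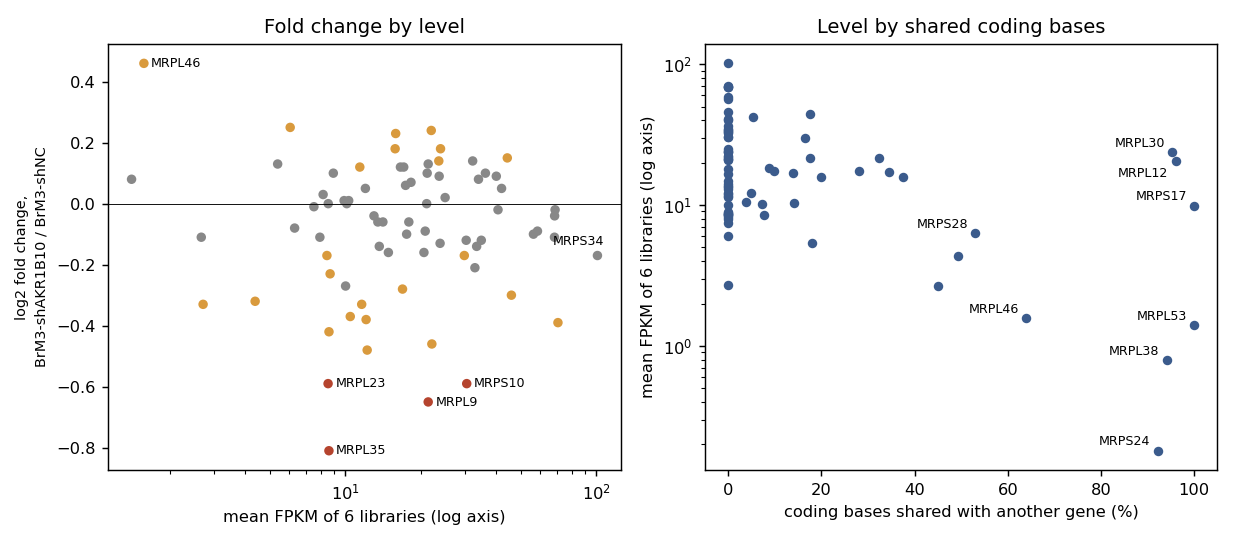
Left, log2FoldChange of the 76 tested members against their mean FPKM over 6 libraries (log axis), coloured red past both thresholds, orange past padj alone and grey otherwise. Right, mean FPKM of the 78 members against the percent of coding bases shared with another annotated gene, where MRPS24, MRPL38, MRPL53 and MRPL46 lie lowest and share over 50%.

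The 4 members with the lowest levels were MRPS24 (0.18 FPKM, on 4 to 14 reads per library), MRPL38 (0.795 FPKM), MRPL53 (1.41 FPKM) and MRPL46 (1.58 FPKM). MRPS24 and MRPL38 fell under the minimum for a test, and MRPL53 was at log2FoldChange 0.08 with a wide interval (-0.45 to 0.61). In each of the 4, more than 50% of the coding bases are also annotated in a second gene on the same strand, with 92.2% for MRPS24, 94.1% for MRPL38, 100% for MRPL53 and 64% for MRPL46. The partner of MRPS24 is the read-through gene URGCP-MRPS24, itself at a mean of 0 and 0.023 FPKM in the 2 groups. Only 8 members share as much. The other 4 were not the lowest, with MRPL12 (96%) at 20.6 FPKM, MRPL30 (95.3%) at 23.7 FPKM, MRPS17 (100%) at 9.90 FPKM and MRPS28 (53%) at 6.29 FPKM. How reads on overlapping genes were counted is not given in the sources used here, and the part of the shared bases in these levels was not tested. In all, 41 members share exon bases with another gene and 28 share coding bases.

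Reads on the 75 annotated mitochondrial ribosomal pseudogenes were few, 88 to 111 per library in BrM3-shAKR1B10 and 93 to 129 in BrM3-shNC, beside 67366 to 74096 reads on the members.

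Of the members, 29 have another protein-coding gene that starts within 1000 bases on the other strand, and some of these partners had values far from theirs. MRPL51, at log2FoldChange -0.10 (padj 0.132), faces the condensin gene NCAPD2, which was lower at 23.2 against 42.5 FPKM (-0.87, padj 1.0e-05). Of the exon bases of MRPL51, 31.3% are also exon of NCAPD2, and their part in its value was not tested. MRPL57 (0.12) faces the spindle gene SKA3 (-0.88, padj 1.1e-04), and MRPL27 (-0.06, padj 0.543) the endonuclease gene EME1 (-0.65, padj 0.00427). MRPS34 faces EME2, which was higher at 10.9 against 5.81 FPKM (0.90, padj 2.8e-05). MRPL18 (-0.30) and the chaperonin gene TCP1 (-0.28, padj 0.00507) were both lower. MRPL46 and MRPS11 face each other, and MRPS11 did not pass (0.13, padj 0.313). These pairs were picked after their values were seen, and no test of a pair against other pairs was made.

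The promoter words were then counted by response. The ETS letters were in 4 of the 16 lower members with a promoter, in 3 of 8 higher members and in 22 of the other 45, and the YY1 letters in 5 of 16, 3 of 8 and 12 of 45. Neither share was tested.

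Of 9 genes listed as regulators of this family, 7 were tested, and at padj under 0.05 6 were lower and 1 higher, with a median log2FoldChange of -0.33, where 23.1% of all genes tested were lower and 19.4% higher. PPARGC1A and PPARGC1B, coactivators of mitochondrial biogenesis, averaged under the minimum for a test. PPARGC1B was at 1.04, 1.40 and 1.15 FPKM against 0.685, 0.817 and 0.697 FPKM, with all silenced libraries above the controls, and PPARGC1A had 0 to 3 reads per library. MYC, a transcription factor of growth genes, was at 25.91, 24.99 and 25.33 FPKM against 38.5, 39.7 and 38.8 FPKM (-0.62, padj 2.9e-05), with the groups far apart. NRF1 was at 3.06, 3.33 and 3.17 FPKM against 4.49, 3.93 and 4.48 FPKM (-0.42, padj 0.00436). GABPA was at 7.44, 6.86 and 6.07 FPKM against 8.95, 9.11 and 7.60 FPKM (-0.33, padj 0.0342), and its groups were closer. GABPB1 (-0.42), YY1 (-0.26) and PPRC1 (-0.14) were lower too, and the nuclear receptor ESRRA was higher (0.26, padj 0.0369). Whether these levels bear on the members was not tested.

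**Figure D4:**
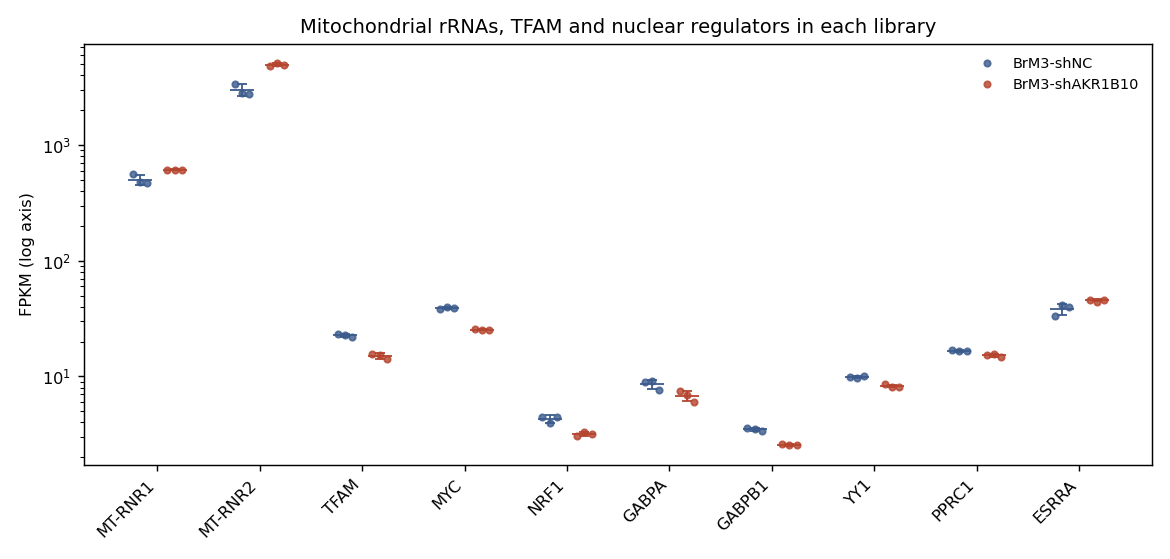
FPKM (log axis) of the mitochondrial rRNAs, TFAM and the tested nuclear regulators in each library, with dots for libraries and bars for the group mean and SD (n = 3). MT-RNR1, MT-RNR2 and ESRRA lie higher in BrM3-shAKR1B10, and TFAM, MYC, NRF1, GABPA, GABPB1, YY1 and PPRC1 lie lower.

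The rRNAs that these proteins bind were higher. MT-RNR2, the large subunit rRNA, was at 4848, 5115 and 4894 FPKM against 3392, 2838 and 2740 FPKM (log2FoldChange 0.73, padj 8.1e-04), and MT-RNR1, the small subunit rRNA, at 605, 614 and 615 FPKM against 562, 478 and 468 FPKM (0.29, padj 0.0173). In both, every silenced library was above the controls. The mRNA was purified with poly-T beads, so these values hold the rRNA captured in that step and not the whole pool. Of the 15 transcripts of mitochondrial DNA, MT-RNR2 alone passed both thresholds. At padj under 0.05, MT-ND1, MT-ND2, MT-ND6 and MT-ATP6 were lower, from -0.42 for MT-ND6 to -0.20 for MT-ND1. MT-ND6 was at 906, 1128 and 931 FPKM against 1579, 1146 and 1257 FPKM, highest in BrM3-shNC replicate 1, and its groups nearly met.

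TFAM, which packages mitochondrial DNA and starts its transcription, was at 15.7, 15.3 and 14.1 FPKM against 23.3, 22.8 and 22.1 FPKM (-0.59, padj 2.0e-04), the single call by both thresholds among 10 genes of mitochondrial transcription and replication. MGME1 (-0.23) and SSBP1 (-0.15) were lower at padj under 0.05. Among 26 mitoribosome assembly factors 0 passed both thresholds, 2 were lower (ERAL1 and GRSF1) and 3 higher at padj under 0.05, led by MPV17L2 (0.44, padj 0.0176), and the median log2FoldChange was 0.03. Among 16 translation factors 3 were lower (MTRF1, TSFM and GUF1) and OXA1L was higher, with a median of -0.06. Over all genes tested, 7.45% passed both thresholds as lower and 5.83% as higher, and 23.1% and 19.4% did so at padj alone.

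The cytosolic ribosome and the respiratory chain gave 2 families for comparison. The respiratory chain list also takes in ATP synthase genes and the inhibitor gene ATP5IF1. Of 84 tested cytosolic ribosomal protein genes, 1 passed both thresholds as lower (RPL39L, -0.65), and 6 were lower and 9 higher at padj under 0.05, with a median log2FoldChange of 0.03. Of 75 nuclear genes for respiratory chain subunits 1 passed as lower (UQCR11, -0.53), and 9 were lower and 9 higher, with a median of -0.01. At padj under 0.05 the lower share was 23.7% of members, 7.14% of cytosolic ribosomal genes and 12% of respiratory chain genes, against the 23.1% of all genes tested, and the higher share was 11.8%, 10.7% and 12%. The differences between the families were not tested.

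**Figure D5:**
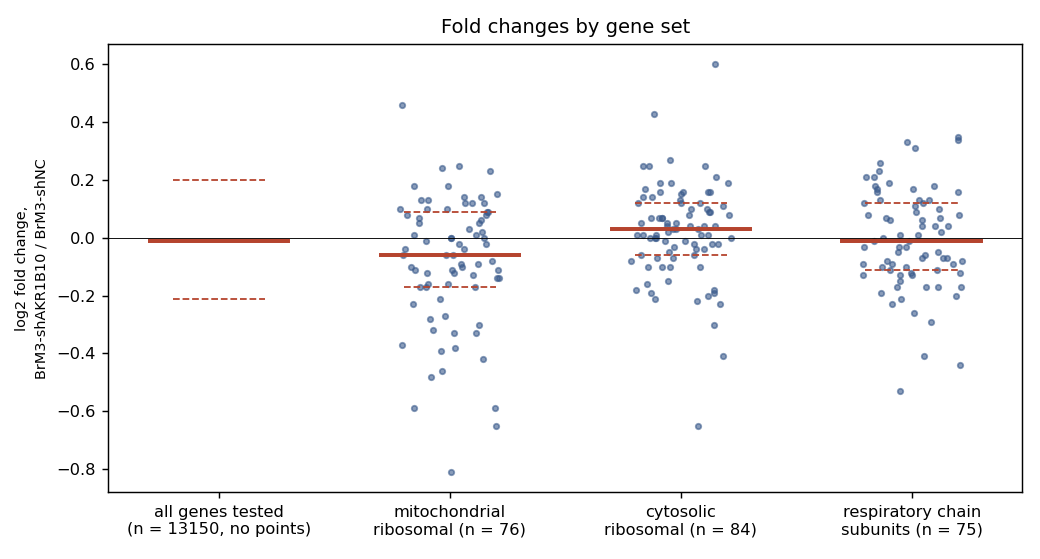
log2FoldChange (BrM3-shAKR1B10 over BrM3-shNC) of each tested gene in 3 families, with the median as a solid line and the quartiles dashed, beside those of all 13150 genes tested. The median is -0.06 for mitochondrial ribosomal protein genes, 0.03 for cytosolic ones and -0.01 for respiratory chain subunits, ATP synthase genes included. The largest changes of the mitochondrial ribosomal family point down.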

How the data were processed

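PolyA-selected RNA of 6 libraries was sequenced in pairs. Per the supplementary methods and the submitters' processing notes, reads were aligned with HISAT2 2.0.5 and counted per gene with featureCounts 1.5.0-p3. The authors deposited FPKM values for 58735 genes, whose identifiers, positions and strand match GENCODE 29 (GRCh38) and which already hold a median-of-ratios scaling. Reads were recovered as whole numbers for 100% of values (within 0.05 reads).

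Since the deposited unit is FPKM, the DESeq2 test that the authors ran was replaced by limma 3.58.1 (R 4.3.3, eBayes with trend) on log2(FPKM + 0.1) for the 13150 genes whose FPKM averaged at least 1, with Benjamini-Hochberg adjustment over all of them (padj). Fold changes are on that scale and understate the change of low genes. An exact permutation test of 3 against 3 libraries cannot go below p = 0.1, so none was used for single genes. All p-values and intervals of fold changes come from this fit, checked on simulated data, and the limits set by reads cover counting error only. Groups follow the sample titles.

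The members, lists and tests were chosen with earlier results of these data known. Named by rule are members past both thresholds, the 3 nearest 0, the 5 highest and 3 lowest, those untested, MRPS18A, MRPS18B, MRPS18C, MRPL10, MRPL11, MRPL12, MRPL45, MRPL58 and MRPS36, mitoribosomal proteins with other symbols, listed genes past both thresholds, and MT-RNR1, MT-RNR2, MYC, NRF1, GABPA, TFAM, AKR1B10 and OAZ3. Other genes were named after their values were seen, as were the motifs. limma's voom on the recovered reads served as the count-based alternative. Alternatives covered pseudocount, filter, scaling, model, replicate block, thresholds, member set and each library left out. Members with under 50% of coding bases shared were added after the data were seen. Python 3.11.15, pandas 2.3.3, numpy 2.4.6 and matplotlib 3.10.9 were used. No column of other samples was present.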

Additional observations from a re-analysis of the deposited data

How the results depend on the processing

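MRPL35, MRPL9 and MRPS10 passed both thresholds in every alternative fit. At a log2 fold change above 1, 0 members were lower, and AKR1B10 passed in all alternatives. With padj alone in place of both thresholds, the counts of lower and higher genes became 18 and 9 for members, 3044 and 2548 for all genes, 2 and 3 for assembly factors, 3 and 1 for translation factors, 6 and 1 for regulators, 4 and 2 for mitochondrial DNA, and 3 lower for its transcription and replication. A log2 fold change above 1 left 205 lower and 168 higher genes, and 0 lower genes of mitochondrial transcription and replication, 0 lower regulators and 0 higher mitochondrial transcripts. A mean FPKM of at least 5 left 532 lower and 290 higher genes, with fewer genes tested, and a pseudocount of 1 left 497 higher. TPM scaling gave 873 lower and 902 higher genes by both thresholds and made MRPL46 the 1 higher member. No filter left 13 lower and 5 higher members at padj alone and 3 lower by both thresholds, without MRPL23. The causes were not tested. Among the 39 tested members with no gene on the other strand, 2 passed both thresholds as lower (MRPL35 and MRPS10), and 8 were lower at padj alone. MRPL9 is not in that set. With protein-coding genes only, which leaves out the rRNAs, 0 mitochondrial transcripts passed as higher. That fit gave 24 lower and 9 higher members at padj alone, and quantile normalization gave 16 lower and 12 higher. The median log2 fold change of members moved to -0.02 under TPM scaling (all genes 0.025) and -0.001 under quantile normalization, and the cause was not tested. Leaving out 1 library gave 3 to 5 lower and 0 to 1 higher members, 14 to 19 lower and 3 to 6 higher at padj alone, a median of -0.067 to -0.028, 947 to 971 lower and 656 to 759 higher genes, 0 to 1 higher assembly factors, and 0 to 1 lower mitochondrial transcripts. limma's voom on the recovered reads called 1038 lower and 789 higher genes by both thresholds, the same 4 members by both, and 23 lower and 7 higher members at padj alone. The replicate numbers did not pair the libraries (correlations of deviations from -0.0155 to 0.00388). With the replicate block 4 members passed both thresholds, and 14 lower and 6 higher passed padj alone. No called value of a named gene changed its sign. MRPS24, the member with the lowest level, had 4 to 14 reads per library and fell under the minimum for a test.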
